A study of Ovis aries with 36 samples.

Results

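The collagen chain genes of sheep, taken as all rows of the count table whose symbol reads COL, a number, A and a number, were followed in cultured ruminal epithelial cells. They numbered 43 of 35223 genes, and 42 of them passed the low-count filter that left 22488 genes in all. Ruminal epithelial cells line the forestomach of ruminants and take up volatile fatty acids (VFAs), the acids that rumen microbes release from feed. The Grain-VFA medium (Grain) held 71.1 mM acetate, 20.1 mM propionate, 16.0 mM butyrate, 1.7 mM valerate, 1.1 mM isobutyrate and 5.3 mM isovalerate, with a stated VFA total of 115.78 mM. The Hay-VFA medium (Hay) held 60.8, 14.6, 9.2, 1.2, 1.0 and 3.0 mM of these acids in the same order, and had a stated total of 89.79 mM. Before either medium, all cultures were held for 2 h without serum in 100 nM of the glucocorticoid dexamethasone, which sets cellular clocks. Both VFA media were set to pH 7.2, and acetate, propionate and butyrate were added as sodium salts. No culture without VFAs was analysed here. Cells were kept in the VFA media and harvested every 4 h, from 24 h (T0) over T4, T8, T12 and T16 to 44 h (T20). Each combination of medium and time has 3 libraries, which gave 18 libraries per medium and 36 in all. The labels do not say from which event the harvest hours run, from which animals the cells came, or whether the 3 libraries of a group were separate cultures. The p-values of comparisons between groups therefore measure the spread between these libraries, which may be technical. Those of the 24 h fit described below also take in how far the group means depart from the fitted curve.

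Collagens are the main structural proteins of the extracellular matrix, and each molecule is a rod wound from chains of a repeating sequence. Fibrillar collagens (types I, II, III, V, XI, XXIV and XXVII) make the ropes of connective tissue, while collagen IV forms the sheet of the basement membrane on which an epithelium sits. Collagen XVII and collagen VII fasten epithelial cells to that sheet and the sheet to the connective tissue below it, and in the rumen wall most fibrillar collagen is made by fibroblasts under the epithelium. The comparison of Grain with Hay asks which of these chains depend on the VFA medium, and the time series asks whether their levels change over the sampled hours.

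Libraries held from 52397135 to 68120879 counts. Levels are given as counts per 1000000 counts (CPM) scaled with trimmed mean of M-values (TMM) factors, and differences are log2 values of Grain minus Hay from edgeR's quasi-likelihood test, adjusted over all 22488 genes and called at an adjusted p under 0.05. CPM are not corrected for transcript length, so levels are compared between media and times and not between genes. Of the 43 chain genes, 13 overlap another annotated gene, and the library kit keeps no strand, so their reads cannot be told apart from those of the other gene. The gene that overlaps COL1A1 had a mean of 60 counts per library. Larger counts lay on the partners of COL8A1, which overlaps FILIP1L (mean 4602 counts), and the low COL9A3 and COL10A1, which overlap TCFL5 and NT5DC1 (mean of NT5DC1 933 counts).

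Collagen chain levels differed widely between the media, and in both directions. Averaged over the 6 time points, 40 of the 42 tested chains were called, 15 higher and 25 lower in Grain, where 81.5% of all tested genes were called (37.7% higher and 43.7% lower). The median difference of the chains was -0.29, against -0.07 over all tested genes. By the fitted difference, 2 called chains were at least 2-fold higher and 9 at least 2-fold lower. By the same rule 5.7% of all tested genes were higher and 16% lower. Of these chains, 1 higher and 5 lower lay under 1 CPM in both media and rest on few counts. Among chains of at least 1 CPM in a medium, 1 was higher and 4 lower. Of the 17 chains with at least 50 CPM in a medium, 11 were higher and 6 lower, where 59.2% of all tested genes of that level were higher and 35.7% lower, so their split lay near that of other abundant genes. Of the 16 chains between 1 and 50 CPM, 2 were higher, 13 lower and 1 did not pass, where 42.1% of all tested genes of that level were higher and 45.5% lower. Taken one at a time, the 6 time points gave similar counts. The chains higher and lower in Grain numbered 14 and 21 at T0 (62.5% of all tested genes called, 31.5% higher and 31.1% lower), 13 and 19 at T4 (57.7%, 29.8% and 27.8%) and 13 and 15 at T8 (56.5%, 29.4% and 27.1%). They numbered 15 and 17 at T12 (64%, 30.6% and 33.4%), 13 and 18 at T16 (62.4%, 30.1% and 32.2%) and 12 and 20 at T20 (58.7%, 29.6% and 29.1%). At all 6 time points 12 chains were called higher and 11 lower, where 21.1% and 18% of all tested genes were.

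The libraries of the media were also apart one time point at a time. In 13 chains all 3 Grain libraries stood above all 3 Hay libraries at each of the 6 time points, and in 10 chains they stood below, where 20.8% and 18.5% of all tested genes did so. Over all 18 libraries of each medium, COL5A2 alone was higher in Grain without overlap, and COL5A3, COL4A3, COL4A4, COL7A1 and COL21A1 were lower without overlap (15.4% and 11.9% of all tested genes). In bulk RNA, fewer cells of a type and less RNA per cell cannot be told apart.

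Markers of cell types differed between the media beside the collagens. Summed levels of 12 fibroblast markers were 13148 to 17758 CPM in Grain and 8305 to 9507 CPM in Hay, with 6 called higher and 6 lower. The higher sum in Grain rests on VIM, the filament protein vimentin (13166 ± 1127 CPM in Grain and 6375 ± 310.3 CPM in Hay). The next most abundant of these markers were lower in Grain. LUM stood at 894 ± 168 CPM in Grain and 973 ± 48.9 CPM in Hay. DCN stood at 616 ± 104 CPM in Grain and 832 ± 31.7 CPM in Hay, and PDPN at 459 ± 37.5 and 518 ± 14.2 CPM. Of 10 smooth muscle and pericyte markers 7 were higher and 3 lower (431 to 998 CPM in Grain and 262 to 1039 CPM in Hay), and of 8 basal keratinocyte markers 4 were higher and 4 lower (704 to 1245 CPM in Grain and 885 to 1116 CPM in Hay). Of 9 tested simple epithelial markers 2 were higher, 6 lower and 1 did not pass (173 to 260.4 CPM in Grain and 286 to 341 CPM in Hay). Of 6 tested markers of differentiated keratinocytes 1 was higher and 5 lower (20.9 to 56.9 CPM in Grain and 39.2 to 51.2 CPM in Hay). KRT4, a keratin of differentiated stratified epithelium, was nearly absent in both media and was not tested. It had no count in any Grain library and 0.00237 ± 0.0101 CPM in Hay. Endothelial markers summed to 19.3 to 27.7 CPM in Grain and 23.5 to 30.6 CPM in Hay, with 1 of 8 higher, 6 lower and 1 not past, and leukocyte markers to 4.25 to 6.23 CPM in Grain and 5.86 to 8.39 CPM in Hay, with 3 of 8 higher and 5 lower. Some genes typical of epithelium were counted in the data. KRT14 stood at 205 ± 57.9 CPM in Grain and 119 ± 6.17 CPM in Hay. KRT5 stood at 83.3 ± 47.1 CPM in Grain and 69.6 ± 20.0 CPM in Hay. EPCAM stood at 28.3 ± 3.17 CPM in Grain and 23.1 ± 1.56 CPM in Hay. The means of these genes were higher in Grain, but they do not stand for their lists. Of the 9 tested simple epithelial markers 6 were lower in Grain, and basal keratinocyte markers were called in both directions. Fibroblast markers were present in every library as well, and their sum, most of it VIM, exceeded that of the basal keratinocyte markers in both media. Since CPM are not corrected for transcript length, these sums do not give the shares of cell types. The part of cell makeup in the collagen differences was not tested.

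**Figure D1:**
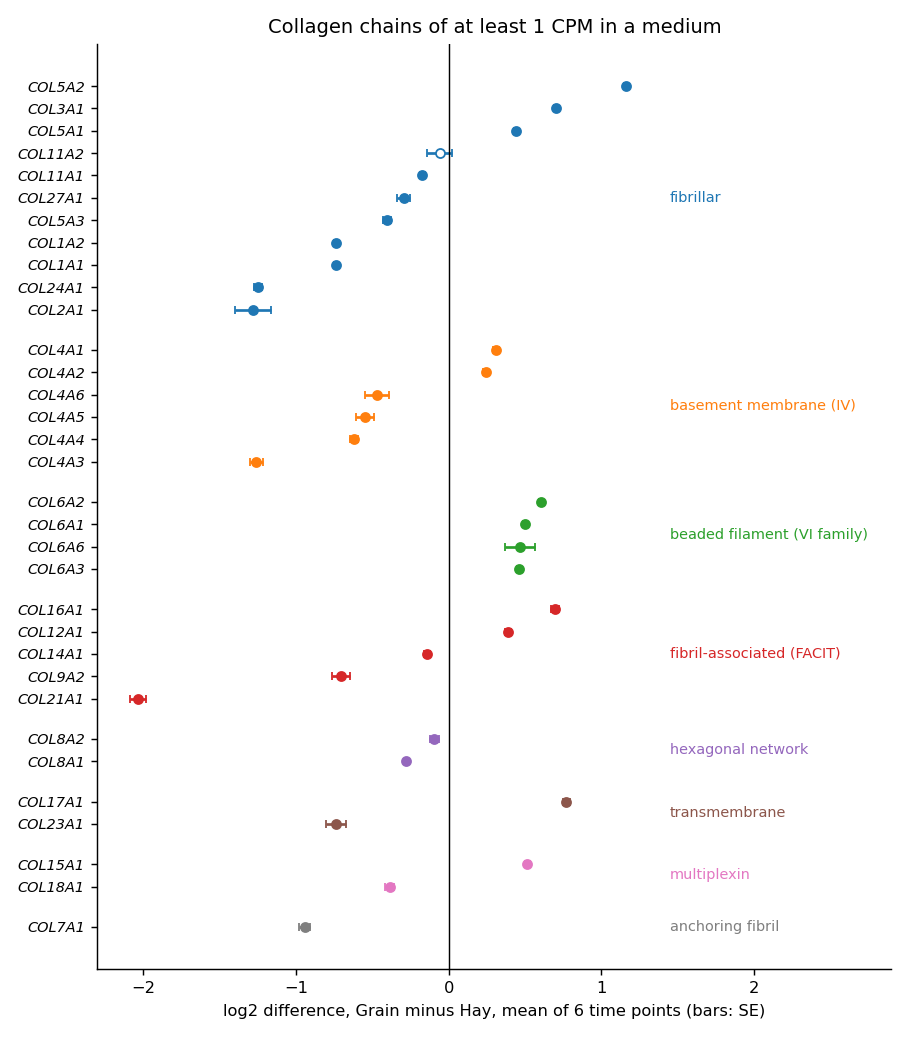
Log2 difference of Grain minus Hay (mean of 6 time points, x axis; bars are SE) for the 33 collagen chains of at least 1 CPM in a medium, grouped by collagen class; filled points passed an edgeR adjusted p of 0.05. COL5A2 lies at 1.16 and COL21A1 at -2.04, and the fibrillar, collagen IV, fibril-associated, transmembrane and multiplexin classes each have chains on both sides of 0.

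Among the fibrillar chains, collagen I was lower in Grain while collagen III and both abundant chains of collagen V were higher. Both chains of collagen I, the main fibre of connective tissue, were lower in Grain. COL1A1 had a lowest, median and highest level of 1363, 2136 and 3549.5 CPM in Grain, against 2569, 3417 and 4884 CPM in Hay. The difference was -0.74 on the log2 scale (SE 0.015, edgeR adjusted p = 1.88e-43), and the highest Grain libraries overlapped the lowest Hay libraries across but not within time points. COL1A2 had a lowest, median and highest level of 2841, 3850.2 and 5679 CPM in Grain, against 5430.0, 6365 and 7670.4 CPM in Hay. COL1A2 differed by -0.74 on the log2 scale (SE 0.012, edgeR adjusted p = 9.95e-48), the same size as COL1A1, with overlap between the highest Grain and the lowest Hay libraries only.

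COL3A1, the single chain of collagen III, which runs with collagen I in pliable tissues, was higher in Grain. COL3A1 had a lowest, median and highest level of 2420.2, 3704 and 5497 CPM in Grain, against 1527, 2254 and 3161 CPM in Hay. It differed by 0.70 on the log2 scale (SE 0.013, edgeR adjusted p = 3.99e-44), with the ranges overlapping across time points but not within any of them. COL5A2 and COL5A1 encode chains of collagen V, a minor fibrillar collagen known to start and limit the width of collagen I fibrils. COL5A2 had a lowest, median and highest level of 2110.0, 3162 and 4504 CPM in Grain, against 967, 1385 and 1934 CPM in Hay. The difference of COL5A2, 1.16 on the log2 scale (SE 0.013, edgeR adjusted p = 2.2e-54), was the largest among the 17 abundant chains, and its lowest Grain library lay above its highest Hay library. COL5A1 had a lowest, median and highest level of 434, 639.9 and 1059.9 CPM in Grain, against 312, 479.7 and 716 CPM in Hay. COL5A1 was higher in Grain by 0.44 on the log2 scale (SE 0.016, edgeR adjusted p = 2.13e-30), a smaller difference than that of COL5A2. Its ranges overlapped across time points but not within any of them. The third chain of collagen V went the other way. COL5A3 had a lowest, median and highest level of 50.9, 60.8 and 71.4 CPM in Grain, against 72.9, 81.3 and 86.4 CPM in Hay, and all 18 Grain libraries lay below all Hay libraries with a difference of -0.40 on the log2 scale (SE 0.025, edgeR adjusted p = 1.83e-16).

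Counts of 2 chains in the same library do not depend on scaling, and the following ratios, chosen after the levels were seen, are given as a description. They do not give the makeup of collagen molecules, since the transcripts differ in length. COL3A1 counts per COL1A1 count were 1.73 ± 0.160 in Grain and 0.635 ± 0.0312 in Hay (SD, n = 18 each), with ranges of 1.52 to 2.06 in Grain and 0.587 to 0.707 in Hay. COL5A2 counts per COL1A1 count were 1.47 ± 0.167 in Grain and 0.392 ± 0.0200 in Hay, with ranges of 1.24 to 1.81 in Grain and 0.358 to 0.432 in Hay. Neither ratio overlapped between the media. COL1A2 per COL1A1, the chains of the same molecule, was 1.83 ± 0.147 in Grain and 1.83 ± 0.175 in Hay, with ranges of 1.59 to 2.08 in Grain and 1.56 to 2.15 in Hay that overlapped almost fully. The ratios of other partners lay closer together in the media. COL4A2 per COL4A1 was 0.459 ± 0.0143 in Grain and 0.482 ± 0.0189 in Hay, and was lower in Grain without overlap at every time point but T12. COL6A2 per COL6A1 was 0.831 ± 0.0316 in Grain and 0.772 ± 0.0198 in Hay, and was higher in Grain without overlap at every time point but T16. COL6A3 per COL6A1 was 0.357 ± 0.0747 in Grain and 0.365 ± 0.0733 in Hay. By contrast COL5A2 per COL5A1 was 4.84 ± 0.379 in Grain and 2.93 ± 0.168 in Hay and did not overlap (4.25 to 5.57 in Grain and 2.68 to 3.25 in Hay).

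**Figure D2:**
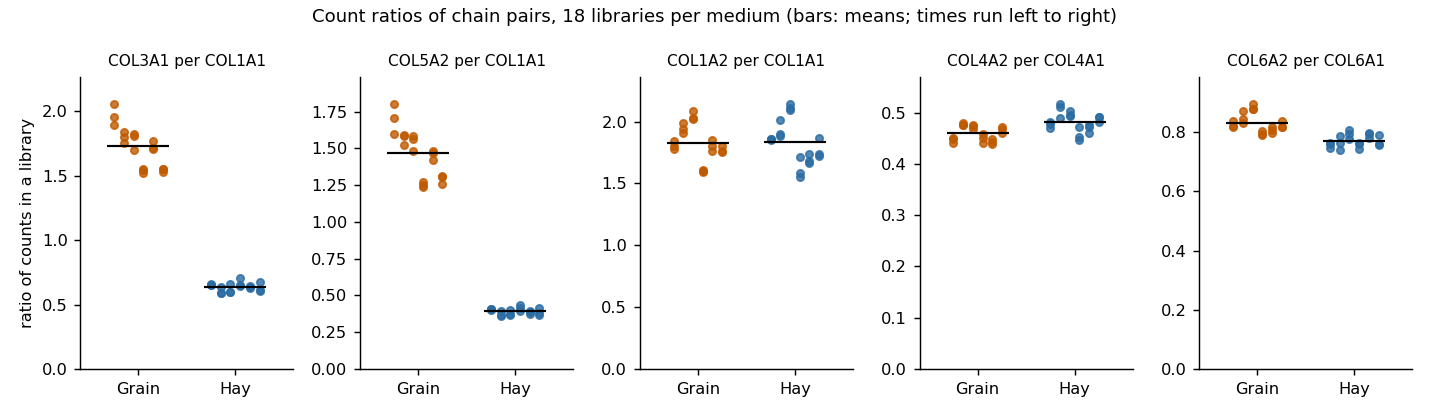
Ratio of the counts of 2 chains in the same library (y axis) in 18 Grain and 18 Hay libraries, with time running from T0 to T20 within each column of points and a bar at the mean. COL3A1 and COL5A2 per COL1A1 averaged 1.73 and 1.47 in Grain, against 0.635 and 0.392 in Hay, while COL1A2 per COL1A1 overlapped between the media.

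The summed share of all counts that fell on collagen chains lay closer together than these chains did one by one. It was 2.09% ± 0.356 in Grain and 2.23% ± 0.267 in Hay (SD, n = 18 each), with ranges of 1.63% to 2.70% in Grain and 1.80% to 2.65% in Hay that overlapped over the whole series. Within time points the share was lower in Grain without overlap at T0, T4, T8 and T20, such as 1.74% in Grain and 2.02% in Hay at T4. It was higher without overlap at T12, and overlapping at T16. This share is of total counts, without the TMM factors, and its direction depends on that. With TMM scaling, the summed chain levels at T0 were higher in Grain without overlap. They were 21076 to 22410 CPM in Grain and 20587 to 20860 CPM in Hay. At T20 the scaled sums overlapped, at 20743 to 21700 CPM in Grain and 21375 to 21993 CPM in Hay. Within the collagen counts, COL1A2 took 18.0% ± 0.717 in Grain and 30.4% ± 1.47 in Hay. COL3A1 took 17.0% ± 0.772 in Grain and 10.6% ± 0.790 in Hay. COL1A1 took 9.88% ± 0.893 in Grain and 16.7% ± 0.887 in Hay. Collagen I thus held a smaller share of the collagen counts in Grain, and collagen III a larger one.

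The other fibrillar chains that passed the test were lower in Grain. COL11A1, a chain of collagen XI, which takes the place of collagen V in cartilage fibrils, differed little. COL11A1 had a lowest, median and highest level of 895, 1205 and 1679 CPM in Grain, against 1131, 1372 and 1550.3 CPM in Hay, and it differed by -0.17 on the log2 scale (SE 0.014, edgeR adjusted p = 8.64e-16) with wide overlap. COL24A1, of a fibrillar collagen described in developing bone, was among the largest differences. COL24A1 had a lowest, median and highest level of 10.4, 17.7 and 26.9 CPM in Grain, against 25.5, 45.2 and 54.9 CPM in Hay, a difference of -1.25 on the log2 scale (SE 0.026, edgeR adjusted p = 8.72e-43), and the ranges met only at the Hay T12 libraries. COL2A1, the cartilage collagen, was scarce and lower. COL2A1 had a lowest, median and highest level of 0.216, 0.740 and 1.84 CPM in Grain, against 1.16, 1.93 and 2.41 CPM in Hay, a difference of -1.28 on the log2 scale (SE 0.12, edgeR adjusted p = 1.24e-14), with the ranges overlapping. COL27A1, a collagen of the cartilage growth plate, stood at 10.7 ± 1.79 CPM in Grain and 13.1 ± 1.90 CPM in Hay and was lower (-0.29), while COL11A2 did not pass (-0.06, edgeR adjusted p = 0.501). Of the 11 fibrillar chains 3 were therefore higher, 7 lower and 1 did not pass.

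Collagen IV split into its abundant and its scarce chains. COL4A1 and COL4A2 lie head to head in mammalian genomes and encode the chains of the basement membrane found in nearly all tissues. COL4A1 had a lowest, median and highest level of 1074, 1278 and 1667 CPM in Grain, against 828, 1056 and 1362 CPM in Hay, and COL4A2 had a lowest, median and highest level of 508, 582 and 752 CPM in Grain, against 416, 504 and 618 CPM in Hay. COL4A1 was higher in Grain by 0.31 on the log2 scale (SE 0.02, edgeR adjusted p = 8.2e-16) and COL4A2 by 0.24 on the log2 scale (SE 0.019, edgeR adjusted p = 5.76e-14). These were small differences, with ranges that overlapped across time points but not within any of them. With total counts as the scaling, the calls of both chains at T12 and T20, and of COL4A2 at T4, were lost. COL4A3, COL4A4, COL4A5 and COL4A6 encode the other collagen IV chains, which make up the basement membranes of kidney, lung and some epithelia. COL4A3 had a lowest, median and highest level of 5.02, 6.78 and 7.77 CPM in Grain, against 12.3, 16.0 and 19.1 CPM in Hay. COL4A3 differed by -1.26 on the log2 scale (SE 0.041, edgeR adjusted p = 1.82e-33), without overlap between the media. COL4A4 stood at 15.9 ± 1.58 CPM in Grain and 24.3 ± 1.13 CPM in Hay (-0.62), also without overlap, and the scarcer COL4A5 and COL4A6 were lower too, with differences of -0.55 and -0.47 and with overlap. COL4A5 and COL4A6 overlap each other in the annotation and may share reads.

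The other chains of the basement membrane zone went both ways. COL17A1, the transmembrane collagen of hemidesmosomes, was higher in Grain. COL17A1 had a lowest, median and highest level of 81.2, 129 and 183 CPM in Grain, against 49.9, 71.1 and 97.3 CPM in Hay, a difference of 0.77 on the log2 scale (SE 0.024, edgeR adjusted p = 2.38e-23), with overlap across but not within time points. COL7A1, the single chain of the anchoring fibrils, was lower without overlap, at 6.40 ± 0.945 CPM in Grain and 12.3 ± 1.65 CPM in Hay (-0.94, edgeR adjusted p = 6.35e-29). COL15A1 and COL18A1 encode the multiplexins, collagens with sugar chains that sit at basement membranes, and COL18A1 holds the endostatin fragment. COL15A1 had a lowest, median and highest level of 45.1, 63.6 and 90.6 CPM in Grain, against 32.8, 43.6 and 57.6 CPM in Hay, and COL15A1 was higher by 0.52 on the log2 scale (SE 0.019, edgeR adjusted p = 1.78e-31). COL18A1 had a lowest, median and highest level of 49.8, 56.0 and 68.8 CPM in Grain, against 67.9, 73.7 and 83.8 CPM in Hay, and COL18A1 was lower, with a difference of -0.39 on the log2 scale (SE 0.03, edgeR adjusted p = 1.94e-12). The multiplexins were thus called in opposite directions. In both, the ranges overlapped over the whole series but the media were apart at every time point.

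The 3 main chains of collagen VI, which forms beaded filaments around cells, were higher in Grain. COL6A1 had a lowest, median and highest level of 544, 779 and 1054 CPM in Grain, against 413, 539 and 690.0 CPM in Hay, a difference of 0.50 on the log2 scale (SE 0.014, edgeR adjusted p = 4.14e-36). COL6A2 had a lowest, median and highest level of 478, 645 and 836 CPM in Grain, against 333, 406 and 527 CPM in Hay, a difference of 0.60 on the log2 scale (SE 0.015, edgeR adjusted p = 7.59e-37). COL6A3 had a lowest, median and highest level of 146, 273 and 481 CPM in Grain, against 111, 197 and 330.1 CPM in Hay, a difference of 0.46 on the log2 scale (SE 0.014, edgeR adjusted p = 1.89e-35). In all 3 the ranges overlapped over the whole series but the media were apart at every time point. COL6A6, a scarce relative, was also called higher, at 1.36 ± 0.368 CPM in Grain and 0.969 ± 0.205 CPM in Hay (0.47). The scarcer COL6A5 and COL28A1, a relative of the family, were lower, at 0.126 ± 0.126 CPM in Grain and 0.346 ± 0.120 CPM in Hay for COL6A5 and 0.378 ± 0.220 CPM in Grain and 0.805 ± 0.221 CPM in Hay for COL28A1.

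Among the fibril-associated collagens, which coat fibrils without forming them, COL12A1 was the one with at least 50 CPM. COL12A1 had a lowest, median and highest level of 1486, 2059.7 and 3048 CPM in Grain, against 1161, 1599 and 2186 CPM in Hay, and it was higher by 0.39 on the log2 scale (SE 0.02, edgeR adjusted p = 9.86e-18), apart at every time point. COL16A1, of the same class, stood at 27.9 ± 5.82 CPM in Grain and 17.1 ± 2.95 CPM in Hay and was higher by 0.70. COL14A1, a close relative of COL12A1, was close in the media, at 32.7 ± 4.46 CPM in Grain and 35.9 ± 2.87 CPM in Hay (-0.14). The largest difference of any chain above 1 CPM was that of COL21A1. COL21A1 had a lowest, median and highest level of 1.80, 2.88 and 3.80 CPM in Grain, against 10.2, 12.0 and 13.7 CPM in Hay, and it was lower, with a difference of -2.04 on the log2 scale (SE 0.053, edgeR adjusted p = 7.81e-38), with a gap between the highest Grain and the lowest Hay library. Of the 8 tested chains of the class, 3 were higher and 5 lower.

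COL8A1 and COL8A2 encode collagen VIII, a network collagen of vessels and the cornea. COL8A1 had a lowest, median and highest level of 585, 813 and 1136 CPM in Grain, against 904, 982 and 1023 CPM in Hay. COL8A1 was lower in Grain, with a difference of -0.28 on the log2 scale (SE 0.013, edgeR adjusted p = 8.92e-27), with overlap, and it spread more widely in Grain than in Hay (SD 177 and 32.5 CPM). COL8A2 stood at 19.5 ± 1.53 CPM in Grain and 20.9 ± 2.91 CPM in Hay and was slightly lower, with a difference of -0.09. COL23A1, a transmembrane collagen, and COL9A2, of the fibril-associated class, were lower, with differences of -0.74 and -0.71.

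The 9 tested chains under 1 CPM in both media rest on few counts, and their fitted differences, from -4.20 for COL9A1 to 1.84 for COL9A3, depend on the prior count where libraries are at 0. They were COL6A5, COL9A1, COL9A3, COL10A1, COL13A1, COL22A1, COL25A1, COL26A1 and COL28A1. Of these 2 were called higher, 6 lower and 1 did not pass (COL13A1, edgeR adjusted p = 0.84). COL9A3 was called higher, at 0.525 ± 0.171 CPM in Grain and 0.146 ± 0.105 CPM in Hay, and COL10A1, the collagen of hypertrophic cartilage, was called higher at an edgeR adjusted p of 0.0496, next to the threshold. COL19A1 was the 1 chain not tested, with no count in 15 of 18 Grain libraries and 13 of 18 Hay libraries.

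Most chains that changed over the sampled hours were lowest at T8 or highest at T12, in both media. Of the 42 tested chains, 30 differed between the 6 time points in Grain (71.4%), where 51.9% of all tested genes did, and 23 in Hay (54.8%), where 36% did. Among the chains so called, 20 of 30 in Grain and 18 of 23 in Hay had their highest mean at T12, where 36.7% and 47.1% of all called genes did. T8 held the lowest mean of 17 of 30 in Grain and of 18 of 23 in Hay, where 32.5% of all called genes did in either medium. The collagen share of all counts had its lowest group mean at T8, 1.65% in Grain and 1.83% in Hay, and its highest at T12, 2.68% in Grain and 2.63% in Hay. From T12 onward the share declined in both media, to 2.06% in Grain and 2.25% in Hay at T20.

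**Figure D3:**
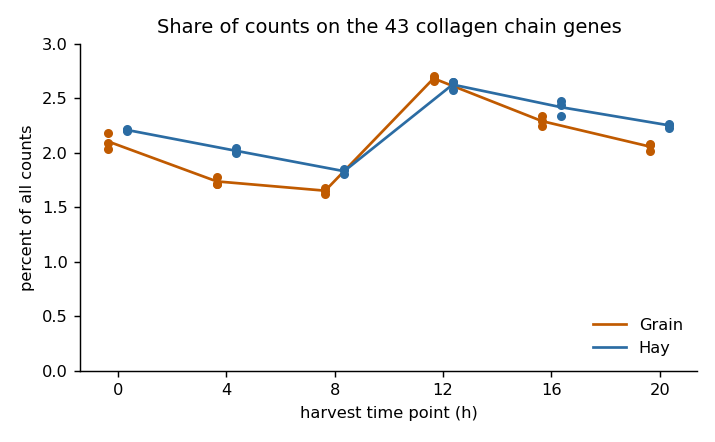
Percent of all counts on the 43 collagen chain genes (y axis) by harvest time point in hours (x axis), 1 point per library, with lines through the means of 3 libraries. In both media the share is lowest at T8 (1.65% in Grain, 1.83% in Hay) and highest at T12 (2.68% in Grain, 2.63% in Hay).

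Group means from T0 to T20 show this course chain by chain. COL1A1 averaged 2015, 1594, 1418, 3529.7, 2480.1 and 2257 CPM in Grain, and 3361, 3089, 2613, 4663, 4188 and 3655 CPM in Hay. COL1A2 averaged 3644, 3101, 2900.2, 5644, 4482 and 3996 CPM in Grain, and 6237, 5961, 5533, 7531, 7092 and 6483 CPM in Hay. COL3A1 averaged 3966, 2865, 2520.5, 5429, 4292 and 3492 CPM in Grain, and 2192, 1869, 1611, 3117, 2664 and 2305 CPM in Hay. In all 3 the fall up to T8, the step up at T12 and the decline after it appear in both media. COL5A2 averaged 3422, 2496, 2187, 4427, 3611 and 2913 CPM in Grain, and 1366, 1152, 996, 1925, 1622 and 1415 CPM in Hay. COL5A1 averaged 644, 487, 445, 1011, 760.3 and 645 CPM in Grain, and 465, 373, 315, 709, 569 and 499 CPM in Hay. COL6A1 averaged 779, 632, 571, 1031, 883 and 763 CPM in Grain, and 501, 479, 423, 683, 619 and 574 CPM in Hay. These chains of collagens V and VI had the same shape, higher in Grain at each time point. COL6A2 averaged 643, 536, 505, 820.5, 714 and 629 CPM in Grain, and 379.8, 366, 335, 516, 489.9 and 441 CPM in Hay. COL6A3 averaged 255, 181, 149, 475, 378 and 289 CPM in Grain, and 172, 144, 112, 324, 259 and 223 CPM in Hay. COL12A1 averaged 2085, 1685, 1498, 3017, 2406 and 2062 CPM in Grain, and 1590.3, 1406, 1191, 2110.4, 1722 and 1629 CPM in Hay. COL6A3 covered the widest range of these 9 chains in both media, as the ratio of its highest to its lowest group mean. COL4A1 averaged 1371, 1118, 1124, 1626, 1471 and 1216 CPM in Grain, and 1049.9, 933, 848, 1337, 1151 and 1071 CPM in Hay. COL4A2 averaged 612, 533, 531, 731, 653 and 567 CPM in Grain, and 500.3, 472, 422, 611, 540.2 and 522 CPM in Hay. COL17A1 averaged 133, 101, 84.5, 179, 144 and 125 CPM in Grain, and 70.5, 64.3, 51.9, 96.8, 85.1 and 75.8 CPM in Hay. The collagen IV chains moved less than COL17A1. COL15A1 averaged 65.1, 51.2, 46.1, 88.1, 76.1 and 63.5 CPM in Grain, and 41.0, 39.1, 34.6, 56.9, 51.8 and 46.8 CPM in Hay. COL11A1 averaged 1159, 972, 914, 1654, 1387 and 1230.2 CPM in Grain, and 1371, 1259, 1157, 1539, 1394 and 1388 CPM in Hay. COL8A1 averaged 830.4, 665, 599, 1118, 939 and 799 CPM in Grain, and 999, 982, 934, 1016, 982 and 957 CPM in Hay. COL8A1 was nearly level over time in Hay and followed the common shape in Grain. COL5A3 averaged 62.0, 53.2, 57.7, 66.8, 66.1 and 59.0 CPM in Grain, and 84.2, 76.6, 77.3, 79.0, 81.5 and 83.1 CPM in Hay, and COL18A1 averaged 59.1, 53.7, 58.5, 59.3, 59.3 and 51.8 CPM in Grain, and 77.2, 77.8, 78.3, 70.1, 72.1 and 71.2 CPM in Hay. COL18A1 was the 1 chain of at least 50 CPM with no time course called in either medium (edgeR adjusted p = 0.0853 in Grain and 0.234 in Hay).

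**Figure D4:**
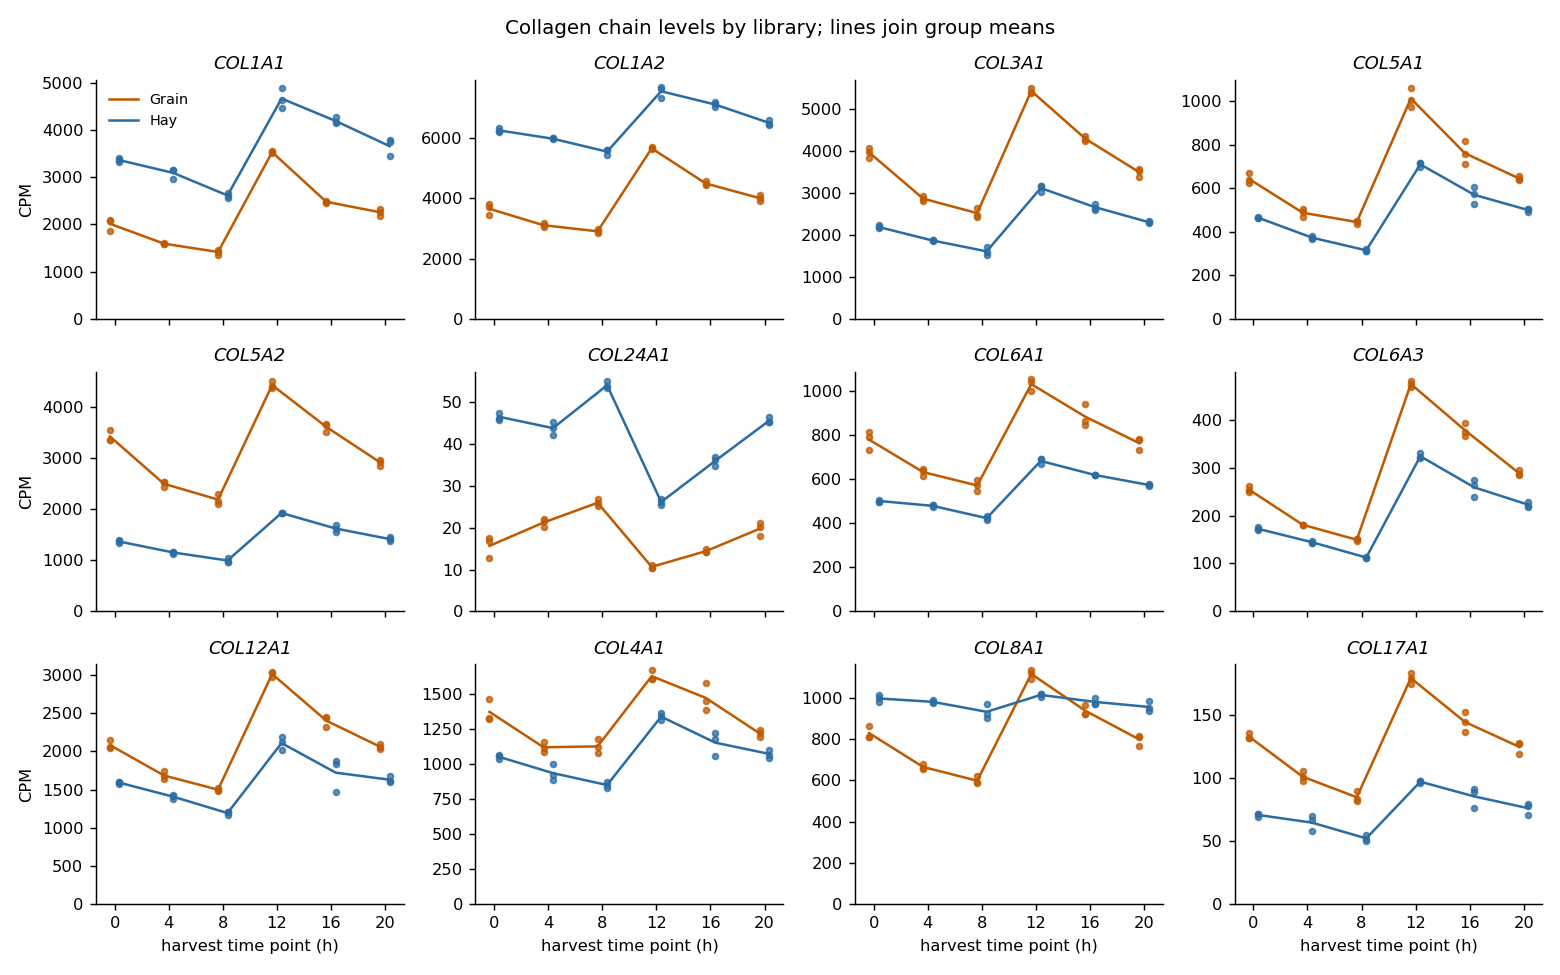
CPM of 12 collagen chains (y axis) by harvest time point in hours (x axis), 1 point per library, with lines through the means of 3 libraries per group. COL6A3 reaches 475 CPM in Grain and 324 CPM in Hay at T12, COL24A1 is lowest there, and the lines of COL8A1 cross.

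The smallest p for any difference over time in Grain were those of COL6A3 (edgeR adjusted p = 3.27e-41), COL1A1 (5.2e-35), COL1A2 (1.62e-33) and COL3A1 (2.82e-33). In Hay they were those of COL6A3 (9.76e-39), COL5A2 (4.15e-30), COL3A1 (5.48e-30) and COL5A1 (2.31e-29). COL6A3 had 481, 468 and 475 CPM in the T12 libraries of Grain, against 146, 150.3 and 152 CPM in those of T8, a ratio of means of 3.17. In Hay it had 319, 330.1 and 322 CPM at T12, against 114, 111 and 112 CPM at T8, a ratio of 2.88. The libraries of the time points were far apart in both media.

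The step between T8 and T12, chosen after the values were seen, is described over all chains. The T12 libraries lay above those of T8 without overlap for 20 of 42 chains in Grain and 18 in Hay, where 26.6% and 23.7% of all tested genes did so, and below for 11 and 10 chains, where 29.4% and 24.6% did. The ratio of T12 over T8 means was 2.49 in Grain and 1.78 in Hay for COL1A1, 2.15 and 1.94 for COL3A1, and 2.27 and 2.25 for COL5A1. COL24A1 ran the other way, with 11.1, 10.4 and 10.4 CPM at T12 in Grain, against 25.1, 26.9 and 25.8 CPM at T8. In Hay COL24A1 had 25.5, 26.0 and 26.8 CPM at T12, against 53.4, 54.9 and 53.7 CPM at T8. Its ratio was 0.41 in Grain and 0.48 in Hay, and COL27A1 (0.64 and 0.74) and the scarce COL11A2 (0.40 and 0.30) were lower at T12 too.

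Scaling bears on this step, since the TMM factors of the T12 libraries stood apart. They were 0.859 to 0.869 at T12 in Grain, where those of the other time points were 0.913 to 1.05, and 0.982 to 1.00 at T12 in Hay, where the others were 1.01 to 1.09. With total counts as the scaling, the T12 libraries lay above those of T8 for 17 chains in each medium, where 10.1% of all tested genes in Grain and 13.8% in Hay did so, and below for 13 chains in Grain and 12 in Hay, where 52.3% and 37.9% did. The ratio of COL6A3 was then 2.62 in Grain and 2.63 in Hay and that of COL1A1 2.05 and 1.63. Between the scalings the ratio crossed 1 for 8 chains in Grain and 4 in Hay. Of these, COL8A2 in Grain, at 1.10 with TMM and 0.90 with total counts, was the 1 chain whose libraries were apart under both scalings, in opposite directions. The others, among them COL5A3 in Grain (1.16 and 0.95) and COL18A1 in Grain (1.01 and 0.83), overlapped under at least 1 of them.

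**Figure D5:**
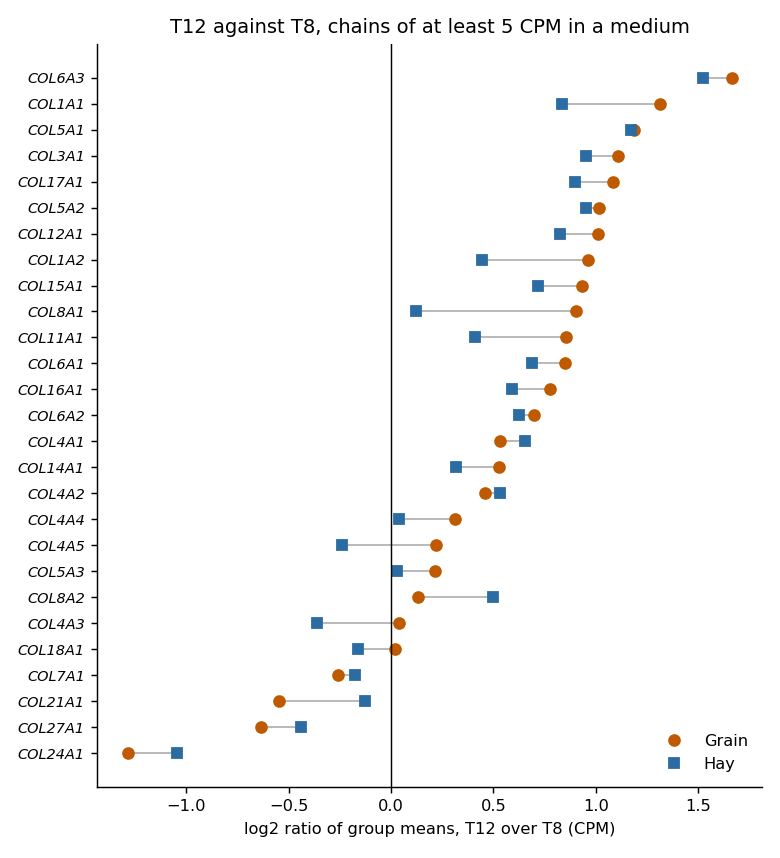
Log2 ratio of group means at T12 over T8 (x axis, from TMM-scaled CPM of 3 libraries each) for the 27 chains of at least 5 CPM in a medium, with circles for Grain and squares for Hay. COL6A3 lies highest in both media, at T12 over T8 ratios of 3.17 in Grain and 2.88 in Hay, and COL24A1 lowest, at 0.41 and 0.48.

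The size of the medium difference changed with time for 23 of the 42 chains (54.8%), where it did so for 33.2% of all tested genes. The smallest p were those of COL8A1 (edgeR adjusted p = 3e-21), COL1A2 (1.12e-15), COL1A1 (5.2e-12) and COL11A1 (7.96e-12). For COL1A2 the difference ran over -0.78, -0.94, -0.93, -0.42, -0.66 and -0.70 from T0 to T20 (SE 0.029 each). For COL1A1 it ran over -0.74, -0.95, -0.88, -0.40, -0.76 and -0.70 (SE 0.036 each). Collagen I was thus lower in Grain at each time point, least so at T12. COL8A1 stood at 619, 591 and 585 CPM in Grain at T8, against 973, 924 and 904 CPM in Hay, a difference of -0.64. At T12 it stood at 1136, 1124 and 1093 CPM in Grain, against 1005, 1023 and 1020.4 CPM in Hay, and the libraries were apart in the other direction (0.14, edgeR adjusted p = 0.000103). COL11A1 had differences of -0.37 at T4 and 0.10 at T12. The values of both at T12 took a negative sign with total counts as the scaling. That of COL8A1 was -0.06 and did not pass (edgeR adjusted p = 0.0547), and that of COL11A1 was -0.09 and was called lower in Grain (0.0268).

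COL5A2 and COL3A1 were higher in Grain at each time point, most at T0. COL5A2 ran from 1.32 at T0 over 1.12, 1.13, 1.20 and 1.15 to 1.04 at T20 (SE 0.033 at T12). COL3A1 ran from 0.86 over 0.62, 0.65, 0.80 and 0.69 to 0.60. Among the 17 abundant chains, no time dependence was called for COL5A1 (edgeR adjusted p = 0.11), COL4A1 (0.0659), COL4A2 (0.0766), COL17A1 (0.058) and COL18A1 (0.177).

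Fewer chains differed between the ends of the window than over the whole time course, though at a larger share than among all tested genes. T20 minus T0 was called for 9 chains in Grain (21.4%), 5 higher and 4 lower, where 9.42% of all tested genes were called (5.27% higher and 4.16% lower). In Hay it was called for 5 chains (11.9%), all higher, where 4.08% of all tested genes were called (3.15% higher and 0.934% lower). These counts over all genes moved when 1 library was left out: the 2119 genes called in Grain became 1364 without replicate 1 at T0, and the 918 in Hay became 499 without replicate 2 at T0. COL6A3 was higher at T20 in both, by 0.18 in Grain (SE 0.033) and 0.37 in Hay (SE 0.033). In Grain COL5A2 was lower at T20 (-0.23), as was COL3A1 (-0.18). In Hay the values for COL5A2 and COL3A1, 0.05 and 0.07, did not pass. The test of the difference of the drifts called 7 chains (16.7%), 1 higher and 6 lower, where 4.42% of all tested genes were called (1.61% higher and 2.8% lower). They were COL5A2 (-0.28, SE 0.045), COL3A1 (-0.26), COL6A2 (-0.25), COL6A1 (-0.22), COL15A1 (-0.23) and COL6A3 (-0.19) on the lower side and COL24A1 (0.36) on the higher side.

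A cosine and a sine of 24 h were fitted for each medium, since the series asks about circadian expression. The 6 time points span less than a full period, so the fit describes a single rise and fall and does not show that it recurs. A 24 h component was called for 20 of 42 chains in Grain (47.6%), where 31.9% of all tested genes were called, and for 15 in Hay (35.7%), where 20.6% were. In Grain 18 of the 20 had a fitted peak between 14 and 18 h after T0, a window chosen after the values were seen that held 41.8% of all called genes, and in Hay 13 of 15 did, where 51.2% of all called genes did. The peaks within it ran from 14.9 to 16.6 h in Grain and from 15.5 to 16.2 h in Hay. These fitted hours lie later than the measured maxima. Of the chains with a called time course, 20 of 30 in Grain and 18 of 23 in Hay were highest at T12. None was highest at T16 in either medium.

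By p, the leading chains in Grain were COL1A2 (edgeR adjusted p = 4.99e-05, amplitude 0.37 on the log2 scale), COL11A1 (8.52e-05, 0.33), COL16A1 (0.000241, 0.32) and COL8A1 (0.000294, 0.31). In Hay they were COL6A2 (0.000422, 0.28), COL6A3 (0.00108, 0.59), COL16A1 (0.00175, 0.28) and COL8A2 (0.00261, 0.19). COL6A3 had an amplitude of 0.66 in Grain and 0.59 in Hay, with peaks at 15.9 and 15.9 h. A difference of the component between the media was called for COL4A4 (edgeR adjusted p = 0.0127) and COL8A1 (0.0247), 2 of 42 chains (4.76%), where 11.3% of all tested genes were called. That count was 4 with DESeq2, with total counts as the scaling and without replicate 3 of Grain at T0. COL8A1 had an amplitude of 0.31 in Grain and 0.01 in Hay, and COL4A4 of 0.15 in Grain and 0.05 in Hay.

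The genes that make, export, join and break down collagen were set beside the chains, on the mean of the 6 time points. Of 16 genes of prolyl and lysyl modification, which stabilise the helix and prepare it for crosslinking, 12 were higher in Grain and 4 lower. For this and the lists below, the share of all tested genes called was 37.7% higher and 43.7% lower. Among tested genes of at least 50 CPM in a medium, a level that many listed genes reached, it was 59.2% higher and 35.7% lower. P4HA2, a catalytic subunit of prolyl 4-hydroxylase, stood at 296 ± 65.8 CPM in Grain and 136 ± 32.7 CPM in Hay, a difference of 1.13 (SE 0.015, edgeR adjusted p = 9.96e-52). FKBP10, a chaperone of procollagen, differed by 1.06 and P4HB, the other subunit of prolyl 4-hydroxylase, by 0.74. P3H2, a prolyl 3-hydroxylase known to act on collagen IV, was lower, with a difference of -1.17 (SE 0.018, edgeR adjusted p = 2.12e-48). The other lower genes, named after their values were seen, were the lysyl hydroxylase PLOD2 (-0.92), the galactosyltransferase COLGALT2 (-0.95) and P4HA3 (-0.24). Of 15 genes of folding, secretion and its control, 8 were higher, 6 lower and 1 did not pass. SPARC, a collagen-binding chaperone, differed by 0.57 and MIA3, which loads procollagen into export carriers, by 0.37, while the prolyl isomerase FKBP7 (-0.56) and the secretory pathway factor CREB3L2 (-0.43) were lower.

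Of 13 genes of procollagen cleavage and crosslinking 9 were higher, 3 lower and 1 did not pass. Of 5 members of the lysyl oxidase family, which crosslink fibrils, 4 were higher and 1 lower. LOXL2 (0.89) and LOXL3 (0.79) were higher, as were LOX (1.19) and LOXL1 (1.37), both named after their values were seen, and LOXL4 was lower at 24.8 ± 3.96 CPM in Grain and 67.5 ± 15.8 CPM in Hay, a difference of -1.43 (SE 0.02, edgeR adjusted p = 1.74e-50). ADAMTS3, a procollagen N-proteinase, was lower (-1.25). Among 12 small proteoglycans and other fibril organisers 6 were higher, 5 lower and 1 did not pass, with FMOD (0.74) and ECM2 (0.84) higher and DCN, decorin (-0.45), and ABI3BP (-0.41) lower. Of 12 collagen receptors 8 were higher, 3 lower and 1 did not pass. Among them the integrin chains ITGA10 (1.82), ITGB1 (0.58) and ITGA2 (0.77) were higher and ADGRG6, an adhesion receptor that binds collagen IV, was lower (-0.96).

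Of 11 tested genes of collagen degradation 7 were higher, 3 lower and 1 did not pass. MMP14, a membrane-bound collagenase, stood at 104 ± 39.4 CPM in Grain and 18.5 ± 5.04 CPM in Hay, a difference of 2.43 (SE 0.025, edgeR adjusted p = 2.26e-45). CTSK, a lysosomal collagenase (0.71), FAP, a surface protease (1.04), and TIMP3, a protease inhibitor (1.00), were higher too. The 3 lower genes, named after their values were seen, were the interstitial collagenase MMP1, at 77.3 ± 42.3 CPM in Grain and 263 ± 19.1 CPM in Hay (-1.96), the lysosomal protease CTSL (-0.43) and the protease inhibitor TIMP2 (-0.31). Of 10 genes that supply ascorbate, proline and glycine 4 were higher, 4 lower and 2 did not pass: PYCR1, of proline synthesis, was higher (0.92), and the amino acid carrier SLC38A2 (-0.51), ALDH18A1 of proline synthesis (-0.46) and the dipeptidase PEPD (-0.81) were lower. Of 15 genes of TGF-beta signalling, a main inducer of fibrillar collagen genes, 10 were higher and 5 lower. The ligand TGFB1 was higher, at 366 ± 25.0 CPM in Grain and 145 ± 28.6 CPM in Hay, a difference of 1.36 (SE 0.015, edgeR adjusted p = 1.16e-54), and TGFB2 lower, at 12.5 ± 1.53 CPM in Grain and 85.0 ± 11.0 CPM in Hay, a difference of -2.77 (SE 0.025, edgeR adjusted p = 5.51e-57). The receptor TGFBR2 was lower (-0.72). With total counts as the scaling, the 64 higher and 33 lower calls over these lists became 55 and 42, where 31.3% of all tested genes were then higher and 50.8% lower. Of the genes named here, P4HA2, P4HA3, PLOD2, FKBP10, LOXL2, LOXL3, ECM2, ABI3BP, ITGB1, ADGRG6, CTSK, CTSL, TIMP2, TIMP3, ALDH18A1, PEPD, TGFB1 and TGFBR2 overlap a second gene in the annotation, so reads of that gene may be included in their values.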

How the data were processed

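RNA from 36 cell culture libraries was sequenced on an Illumina NovaSeq after TruSeq RNA v2 preparation, which keeps no strand, per the labels' protocols. The deposited values are whole-number read counts per gene; HISAT2 2.2.1, SAMtools 1.20 and StringTie 2.1.5 are named in the submitters' processing notes, without their roles, and the genome build is not given in the sources used here. Reads shared by overlapping or near-identical genes may have been split or dropped in that counting.

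Genes passing edgeR's filterByExpr over the 12 groups (minimum count 10, minimum total 15) were kept, scaled with TMM factors and fitted in 1 model of 12 group means with edgeR 4.0.16 (robust quasi-likelihood test, limma 3.58.1, R 4.3.3). CPM use TMM-scaled library sizes, and an SE is the absolute log2 difference over the square root of F. All p-values are two-sided and Benjamini-Hochberg adjusted over all tested genes, with a threshold of 0.05. The 24 h component is a cosine and sine pair per medium, fitted in a separate model with its own dispersion. The residual of that model holds the departure of the group means from the curve as well as the spread between libraries. The fit was also run on simulated data in which only a small share of genes was changed. Those data lacked the wide differences between media seen here, so that run cannot speak to calls that depend on scaling.

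Chains with at least 50 CPM in a medium were described in full, and those of at least 1 CPM and a 2-fold difference likewise. For each other test or list, up to 4 genes of smallest p with at least 5 CPM were named. A gene that this rule selects is not reported here. Remaining chains were named to account for all members, after their values were seen. The members and the gene lists were chosen with earlier results of these data known. Gene overlaps were taken from the RefSeq table of ARS-UI_Ramb_v3.0, which held all 43 chains, and were used for neighbourhood only.

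Replicate libraries of a group were further apart than counting error allows (a chi-square statistic of 4.86 to 25.7 for each degree of freedom over 36 pairs), so each counted as 1 sample. Libraries of like number showed no pairing across groups (correlations of deviations from -0.0416 to 0.0409), and the replicate number was used as a block only as an alternative. Other alternatives were DESeq2 1.42.0, its size factors, total counts, no filter, leaving out each library, fitting fewer groups, and leaving out T12, the last chosen after the data were seen.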

Additional observations from a re-analysis of the deposited data

Results flagged for a closer look

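The difference between Grain and Hay changed over the 6 time points for COL8A1 (edgeR adjusted p = 3e-21), COL1A2 (1.12e-15), COL1A1 (5.2e-12) and COL11A1 (7.96e-12), by the test of the medium and time terms together. COL1A2 and COL1A1 were lower in Grain at each time point, while COL8A1 and COL11A1 were lower in Grain at T4 and T8 and higher at T12. Under total-count scaling COL8A1 and COL11A1 had a negative sign at T12, and COL11A1 passed the edgeR test there.

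The drift over the window, T20 minus T0, differed between the media for COL5A2 by -0.28 on the log2 scale, for COL3A1 by -0.26, for COL6A2 by -0.25 and for COL6A1 by -0.22, each as Grain minus Hay and each past the edgeR test of the difference. All 4 were also among the 15 chains called higher in Grain on average, and their difference between the media was smaller at T20 than at T0. The 24 h component differed between the media for COL4A4 (edgeR adjusted p = 0.0127) and COL8A1 (0.0247), with a larger amplitude in Grain for COL8A1. No explanation of these differences was tested.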

How the results depend on the processing

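The number of chains called for the mean difference was 40 with DESeq2, 39 with its size factors, 40 with total counts, 39 without a filter, 39 without the T12 libraries and 38 to 40 when each library was left out. With the replicate number as a block it was 39 against 40 without it, and no other count of chains moved by more than 1.5 times under the block. The count for the 24 h difference between media was 4 with DESeq2 and 4 with total counts, against 2, and 2 to 4 when each library was left out, with 4 called without replicate 3 of Grain at T0. Total counts moved the median of all genes by -0.12 for the mean difference and by -0.19 at T12. They turned the T12 differences of COL8A1 to -0.056 (edgeR adjusted p = 0.0547) and of COL11A1 to -0.090 (0.0268). They also ended the calls of COL4A2 at T4 (edgeR adjusted p = 0.123), T12 (0.278) and T20 (0.859), and COL4A1 at T12 (0.169) and T20 (0.248). The T20 call of COL4A2 was lost as well with DESeq2 (0.0749), with its size factors (0.0888) and without replicate 2 (0.103) or 3 (0.0556) of Grain or replicate 2 of Hay (0.0851) at T20. For COL11A1 at T16 the value near 0 ran from -0.080 to 0.045 when each library was left out. The time dependence held 18 chains with total counts and 17 without T12, against 23. Over all genes, the Hay time course held 5287 genes without T12, against 8086. T20 minus T0 held 1364 genes in Grain without replicate 1 at T0 and 1393 without replicate 1 at T20, against 2119. In Hay it held 533 and 499 without replicates 1 and 2 at T0 and 581 and 567 without replicates 1 and 3 at T20, against 918. The causes of these shifts were not tested. Chains under 1 CPM rest on few counts, and the size of difference detectable in them was not tested.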
